A study of Mus musculus with 20 samples.

Results

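The genes that build and load MHC class I molecules were described in intestinal tissue of mice with and without the BRAF kinase mutation V600E, and of mutant mice with and without an inhibitor of MEK. The set held 10 genes, chosen by name: B2m, H2-K1, H2-D1, Tap1, Tap2, Tapbp, Psmb8, Psmb9, Psmb10 and Nlrc5. All 10 were found, by 17 probes, among 24842 genes and 56605 probes on the arrays, and every member was well above background on all 20 arrays in the probe that stood for it. The Cre control group (6 mice) and the BRAFV600E group (6 mice) were C57BL6/j mice with a tamoxifen-inducible Cre recombinase driven by the Villin promoter, which acts in gut epithelium and not in the other cells of the tissue. BRAFV600E mice carried in addition a Cre-dependent V600E allele of Braf. Per the study's methods both groups were 8 to 12 weeks old, received 3 daily tamoxifen doses of 2 mg, and were sampled 3 days after the last dose. The MEKi group (4 mice) received 2 tamoxifen injections and then 3 daily injections of the MEK inhibitor PD184352, and the Vehicle group (4 mice) received the carrier on the same schedule. The genotype of these 8 mice is missing from the labels and is BRAF mutant in the study's figure legends, and the methods give no narrower age for them than the range of 8 weeks to 6 months stated for all mice of the study.

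MHC class I molecules show peptides from inside the cell to CD8 T cells. The peptides are cut by the proteasome, in which the immunoproteasome subunits Psmb8, Psmb9 and Psmb10 can take the place of the constitutive catalytic subunits Psmb5, Psmb6 and Psmb7. The Tap1 and Tap2 proteins form the transporter that carries peptides into the endoplasmic reticulum, where tapasin (Tapbp) holds the empty class I molecule at the transporter while a peptide is loaded. The class I molecule itself is a heavy chain (H2-K1 and H2-D1 in mouse) bound to the light chain beta-2 microglobulin (B2m). Nlrc5 is the transactivator of class I genes. It has no DNA-binding domain of its own and acts through factors bound to a conserved promoter module of S, X and Y boxes, and interferon-gamma is the classical inducer of the whole set.

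Letters of the X and Y boxes of this module can be read in some of the promoters, and the S box was not searched. RefSeq promoter windows (assembly GRCm38.p6) were available for 8 of the 10 members, and the 250 bases before each start were searched on both strands. The promoters of both heavy chains and of B2m are shown because they hold the X2 box core TGACG followed by the inverted CCAAT letters ATTGG of the Y box at the same distance, 25 bases from start to start. The capitals mark these letters and, upstream of them, AGTTTC, the first letters of the interferon response sequence of class I promoters, or in B2m the longer interferon element GAAANNGAAA (chr17:34000353-34000458 minus strand, chr17:35262923-35263028 plus strand and chr2:122147539-122147644 plus strand):
H2-K1: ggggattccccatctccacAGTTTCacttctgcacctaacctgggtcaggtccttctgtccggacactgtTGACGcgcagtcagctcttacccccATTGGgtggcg
H2-D1: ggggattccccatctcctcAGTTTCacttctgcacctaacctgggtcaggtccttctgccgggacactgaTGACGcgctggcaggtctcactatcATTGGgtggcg
B2m: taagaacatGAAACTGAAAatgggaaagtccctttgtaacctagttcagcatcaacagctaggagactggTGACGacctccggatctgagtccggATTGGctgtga
Of 32851 promoter windows, 17.8% held TGACG, 33.8% ATTGG, 13.5% AGTTTC and 2.98% GAAANNGAAA on either strand, and 30 windows (0.0913%) held TGACG and ATTGG at that distance. The 30 windows include 1 of H2-D1, 1 of B2m, both overlapping windows of H2-K1 and that of H2-M3, a further class I gene. The distance was chosen because these members have it, so the share is a description. Tapbp held ATTGG but no TGACG, Psmb8 held neither, and Psmb10 held none of the letters searched. The letters TTCNNNGAA of the gamma-activated site were also searched. They were in 7.02% of windows and, among the members, only in that of Psmb8.

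Tap1 and Psmb9 are transcribed away from each other from starts 225 bases apart. The stretch between the starts is shown because both genes share it, with TGACG and the reverse complement of ATTGG in capitals (chr17:34187331-34187555, in the direction of Tap1):
Tap1: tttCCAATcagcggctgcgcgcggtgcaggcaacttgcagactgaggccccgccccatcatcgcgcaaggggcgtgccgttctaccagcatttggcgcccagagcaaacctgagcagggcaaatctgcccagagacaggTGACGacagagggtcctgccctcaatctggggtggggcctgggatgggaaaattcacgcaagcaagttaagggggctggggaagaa
Here TGACG and CCAAT lie far apart and in the other order. A match of letters is not evidence of a bound site.

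Of the genes, 7 lie in the MHC region of chromosome 17. In the files' coordinates (mouse build mm9) the probes that stood for them began at 34066022 (Tapbp), 34133055 (H2-K1), 34319174 (Psmb9), 34334022 (Tap1), 34337771 (Psmb8), 34353116 (Tap2) and 35403886 (H2-D1). The B2m probe lies on chromosome 2 at 121978401-121978460, and those of Psmb10 (108459677-108459736) and Nlrc5 (97051105-97051164) on chromosome 8. H2-K1 and H2-D1 have near-identical relatives among class I genes, so their probes may also have bound other class I transcripts.

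Levels are log2 signals minus the array's 75th percentile, so 1 unit is a doubling relative to that percentile, and levels of different genes are not on a common scale. The percentile itself ran from 540 to 1554 in linear signal, and 60.8% to 76.8% of spots were well above background. The 8 epithelial marker genes were well above background on every array. The arrays lay on 3 slides, and this bears on everything below. All 6 controls of the first experiment were on slide 1 together with 2 mutants (BRAFV600E replicates 1 and 2), while the other 4 mutants (replicates 3 to 6) were alone on slide 2. The MEKi and Vehicle arrays filled 1 row each of slide 3, so that row and group cannot be told apart there. Y-linked transcripts were present on 3 of 6 Cre control, 4 of 6 BRAFV600E, 4 of 4 MEKi and 2 of 4 Vehicle arrays.

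The first comparison asks what the mutant kinase changes in the gut within days. All 10 class I genes had a lower mean in BRAFV600E than in Cre control mice, by a median of 0.46 log2 units, against a median change of −0.02 over the 18926 genes tested, but without scaling between arrays, where the median of all genes was 0.79, 8 of the 10 had a higher mean. Leaving out the scaling raises each difference over all 12 arrays by 0.81. Genes described here as lower by less than that would then have the higher mean. Psmb10, measured on 11 arrays, went from −0.66 to 0.10. Tap2 was called lower, by 0.91 log2 units or 1.88-fold (SE 0.25, adjusted p = 0.0319, limma), and the other 9 were not called. The background is that 6.58% of all genes were called lower and 6.46% higher (13.0% in all), so 1 call in 10 is near the background. Before adjustment, 6 of the 10 had a p under 0.05, as did 5764 of the 18926 genes tested.

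The mean hides a split within the mutant group. BRAFV600E replicates 1 and 2 had the lowest and second lowest level of all 12 arrays for each of the 10 genes, below every Cre control array. Among all genes, both arrays lay below every Cre control array for 14.8%. BRAFV600E replicates 3 to 6, on the other slide, had means below the Cre control mean for 8 of 10 genes. At least 1 of these 4 arrays lay below every Cre control array for 3 genes. Those 3 were Tap2 (2 arrays), Psmb8 (3 arrays) and Nlrc5 (3 arrays). The share of all genes for which this held was not computed. No member had groups that did not overlap, which 7.53% of all genes did.

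The mean of BRAFV600E replicates 1 and 2 minus that of replicates 3 to 6 was widest for Tap1, at −1.64. For the immunoproteasome subunits it was −1.46 (Psmb8), −1.27 (Psmb9) and −0.96 (Psmb10). Psmb8, the subunit with chymotrypsin-like activity, ran from 3.17 to 3.74 (median 3.63) in Cre control arrays. It stood at 1.89 and 1.25 on BRAFV600E replicates 1 and 2 and at 2.77, 3.36, 2.94 and 3.04 on replicates 3 to 6. Of the 6 mutant arrays, 5 lay below every control array, and the difference of means was −0.99 log2 units (95% confidence interval −1.68 to −0.30, adjusted p = 0.0568). Psmb9, the subunit that replaces Psmb6, was at 2.44 and 2.12 on the first 2 mutant arrays and at 3.53, 3.79, 3.36 and 3.52 on the rest, against 3.15 to 4.12 (median 3.83) in controls. Only the first 2 lie outside the control range, and the difference of means was −0.65 (−1.27 to −0.02, adjusted p = 0.150). Psmb10, the subunit that replaces Psmb7, was at 5.61 and 5.11 and then at 6.19, 6.32 and 6.45, against 6.01 to 7.04 (median 6.60) in controls. Its only spot was marked non-uniform on replicate 6, which was left out, and the difference over 11 arrays was −0.66 (−1.25 to −0.08, adjusted p = 0.119).

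The transporter genes were not alike in their slide 2 values. Tap1 ran from 2.13 to 2.71 (median 2.41) in controls, stood at 1.096 and 0.681 on BRAFV600E replicates 1 and 2, and at 2.38, 2.78, 2.32 and 2.62 on replicates 3 to 6, inside or above the control range. Its difference of means was −0.43 (−1.16 to 0.30, adjusted p = 0.417). Tap2 ran from 3.29 to 4.32 (median 3.99) in controls, stood at 2.53 and 2.40, and then at 2.99, 3.67, 3.38 and 3.20. Of the mutant arrays, 4 lay below every control array. The call for Tap2 was lost when any of Cre control replicates 2, 3 or 5 or BRAFV600E replicates 1, 2 or 3 was left out (adjusted p 0.0574 to 0.0722, changes of −0.91 to −0.79).

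The light chain, the heavy chains and tapasin were not called. The differences of means were −0.30 for B2m (−0.63 to 0.04, adjusted p = 0.214), −0.47 for H2-K1 (−0.91 to −0.03, adjusted p = 0.139), −0.14 for H2-D1 (−0.48 to 0.20, adjusted p = 0.605) and −0.42 for Tapbp (−0.91 to 0.06, adjusted p = 0.223). H2-D1 was tight in controls, from 5.84 to 5.98, and stood at 5.30 and 5.36 on BRAFV600E replicates 1 and 2 but at 5.89, 5.95, 6.06 and 6.13 on replicates 3 to 6. For this gene 2 mutant arrays lay below and 2 above the whole control range. The transactivator Nlrc5 ran from −0.995 to −0.521 in controls, stood at −1.65 and −1.90 on replicates 1 and 2, and at −1.05, −0.52, −1.27 and −1.16 on replicates 3 to 6. Its difference of means was −0.45 (−0.89 to 0.00, adjusted p = 0.164).

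**Figure D1:**
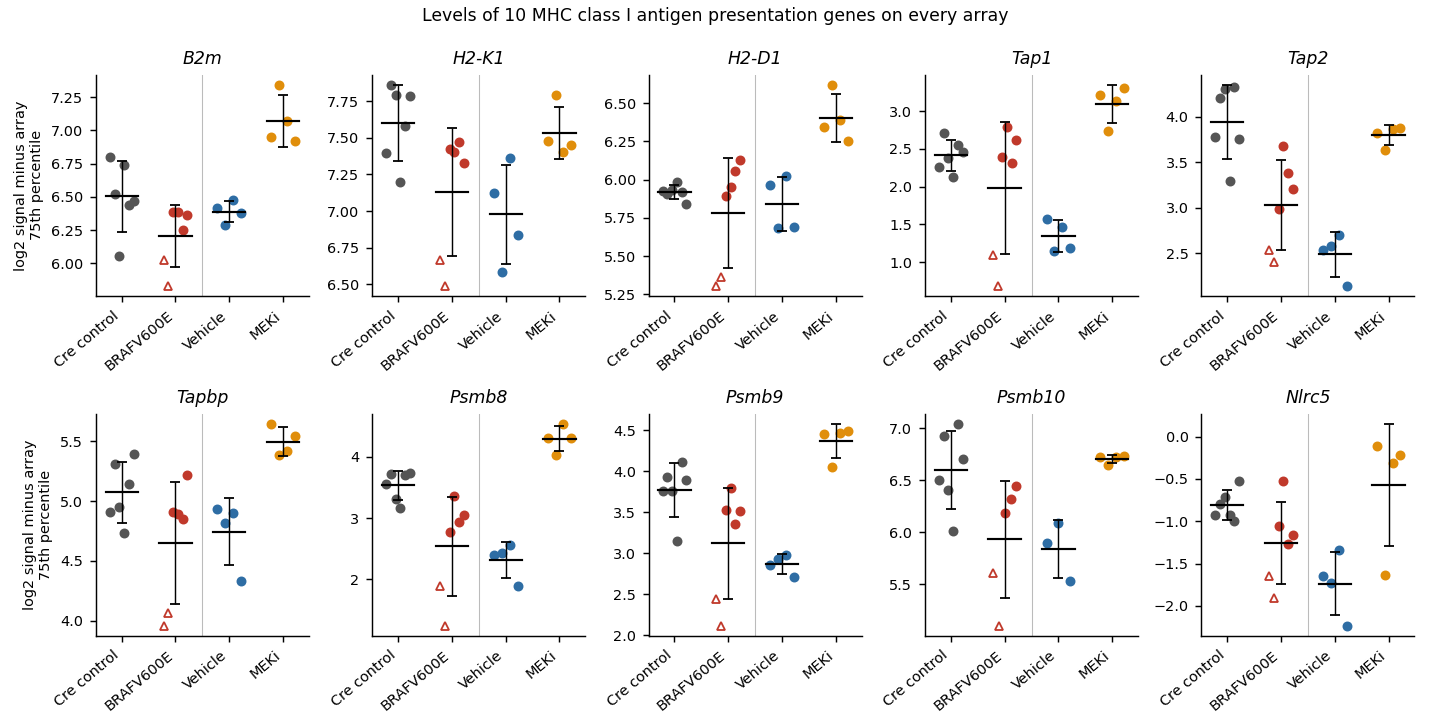
Level of each of the 10 genes (vertical axis, log2 signal minus the array's 75th percentile, a separate axis range for each gene) on every array of the 4 groups, which lie on the horizontal axis. Points are arrays, open triangles are BRAFV600E replicates 1 and 2 on slide 1, horizontal bars are means and error bars are SD. The open triangles lie below every Cre control array in all 10 panels, and the MEKi arrays lie above every Vehicle array in 9 of 10 (Nlrc5 is the exception). Without scaling between arrays, 8 of the 10 genes had the higher mean in BRAFV600E.

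Within slide 1, where both groups were measured, the 2 BRAFV600E arrays differed from the 6 controls by −1.97 for Psmb8, −1.52 for Tap1, −1.49 for Psmb9, −1.48 for Tap2, −1.24 for Psmb10, −1.06 for Tapbp, −1.03 for H2-K1, −0.96 for Nlrc5, −0.58 for H2-D1 and −0.58 for B2m. Fitted on slide 1 alone, 7 of 10 genes were called lower, against 2.82% of all genes (adjusted p from 0.00561 for Psmb8 to 0.0429 for H2-K1, limma). With the slide as a block, which gives the same differences because slide 2 holds no control, 9 of 10 were called lower, against 5.64% of all genes, and B2m was the exception (adjusted p = 0.0832). With the mutant arrays of slide 2 only, the differences ran from −0.63 (Tap2) to 0.11 (Tap1) and 0 of 10 were called. In that set, group and slide cannot be told apart, and the slide 1 values rest on 2 mice. The slide 1 values are also after scaling, and that fit was not repeated without it. The 75th percentile was 1085 and 1506 on the 2 mutant arrays of slide 1 and 540 to 1258 on the controls.

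**Figure D2:**
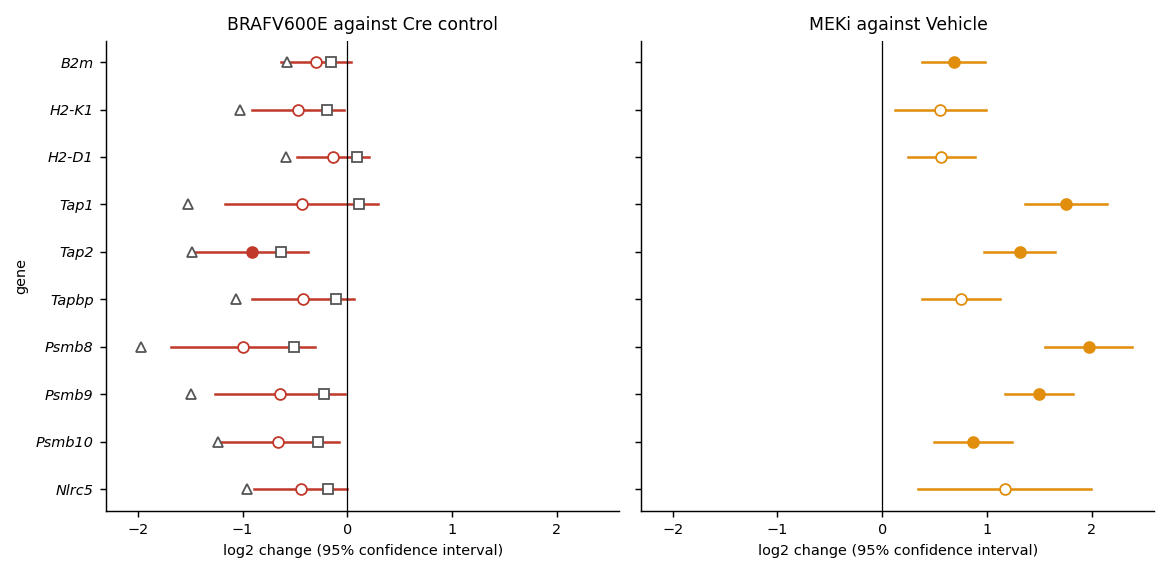
Log2 change of each gene (horizontal axis) in BRAFV600E against Cre control (left) and MEKi against Vehicle (right). Circles with lines are differences of means with 95% confidence intervals, filled where the gene was called. On the left, triangles are the change within slide 1 (2 mutant arrays) and squares the change with the 4 mutant arrays of slide 2 only. All triangles lie left of the circles and all squares right of them. Without scaling between arrays, 8 of the 10 circles on the left would lie above 0.

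The second comparison asks what the MEK inhibitor changes in mutant mice. It has no Cre control group, so whether a change seen in BRAFV600E depends on MEK was not tested. All 10 class I genes had a higher mean in MEKi than in Vehicle arrays, under each scaling tried, although without scaling only Psmb8 and Tap1 of the 10 were called, with a median difference of 1.02 log2 units against 0.04 over the 19108 genes tested. Of the 10, 6 were called higher (Psmb8, Tap1, Psmb9, Tap2, Psmb10 and B2m), where the background is 1.09% of genes called higher and 0.905% lower. In 9 of 10 genes every MEKi array lay above every Vehicle array, which held for 6.36% of all genes. The called changes ran from 1.60-fold (B2m) to 3.92-fold (Psmb8).

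Psmb8 stood at 2.40, 2.43, 2.56 and 1.90 on the Vehicle arrays and at 4.31, 4.03, 4.53 and 4.30 on the MEKi arrays. The gap between the groups is wider than the whole range of either group, and the gene rose by 1.97 log2 units (SE 0.18, adjusted p = 0.00420, limma). Psmb9 stood at 2.86, 2.94, 2.99 and 2.71 and then at 4.46, 4.05, 4.47 and 4.49, a rise of 1.49 (SE 0.14, adjusted p = 0.00463). MEKi replicate 2 was the lowest of its group, as it was for Psmb8, and still lay above every Vehicle array. Psmb10 stood at 5.89, 6.09 and 5.53 on 3 Vehicle arrays (its spot on Vehicle replicate 2 was marked non-uniform and left out) and at 6.72, 6.64, 6.72 and 6.74 on the MEKi arrays. It rose by 0.87 (SE 0.16, adjusted p = 0.0472 over 7 arrays), which is near the threshold.

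Tap1 stood at 1.57, 1.15, 1.47 and 1.18 on the Vehicle arrays and at 3.21, 2.73, 3.13 and 3.31 on the MEKi arrays, and rose by 1.75 log2 units or 3.38-fold (SE 0.17, adjusted p = 0.00487). Tap2 stood at 2.53, 2.58, 2.69 and 2.14 and then at 3.82, 3.64, 3.86 and 3.87, and rose by 1.31 or 2.49-fold (SE 0.15, adjusted p = 0.00857). Both chains of the transporter thus rose with no overlap between groups. Tapbp, at 4.93, 4.82, 4.90 and 4.33 against 5.64, 5.38, 5.42 and 5.54, also did not overlap, but was not called (difference 0.75, 0.38 to 1.12, adjusted p = 0.0611).

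The differences of the class I chains were the smallest of the 10, without a test between genes. B2m stood at 6.41, 6.29, 6.48 and 6.38 on the Vehicle arrays and at 6.95, 7.35, 7.07 and 6.92 on the MEKi arrays, and rose by 0.68 (SE 0.13, adjusted p = 0.0434). H2-D1 stood at 5.96, 5.68, 6.02 and 5.69 against 6.34, 6.62, 6.39 and 6.26, a difference of 0.56 that was not called (0.24 to 0.88, adjusted p = 0.0932). H2-K1 stood at 7.13, 6.59, 7.37 and 6.84 against 7.48, 7.80, 7.41 and 7.45, a difference of 0.55 (0.12 to 0.99, adjusted p = 0.195). For H2-K1 the highest Vehicle array lay just under the lowest MEKi array, so the groups almost touch. MEKi replicate 2 was the highest array of its group for all 3 of these genes, and the lowest for Psmb8, Psmb9, Psmb10, Tap1, Tap2, Tapbp and Nlrc5.

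Nlrc5 stood at −1.65, −1.74, −1.34 and −2.23 on the Vehicle arrays and at −0.11, −1.64, −0.32 and −0.21 on the MEKi arrays. MEKi replicate 2 lay among the Vehicle arrays and the other 3 lay above all of them. The difference was 1.17 (0.34 to 1.99, adjusted p = 0.158), and without that array it was 1.53 and called (adjusted p = 0.0243).

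Psmb8, Psmb9, Tap1 and Tap2 were called higher in each of the 8 fits that left out 1 array. The call of B2m was lost in all 8 (adjusted p 0.0512 to 0.117) and that of Psmb10 in all but the fit without Vehicle replicate 2, which has no value for it (adjusted p up to 0.147), so both calls rest on the full set of arrays. Because MEKi and Vehicle differed in their share of Y-linked arrays, the comparison was repeated on the 4 MEKi and 2 Vehicle arrays with Y-linked signal, where Psmb8, Psmb9, Tap1 and Tap2 were called higher by 1.81, 1.44, 1.58 and 1.18. With Y-linked signal as a covariate over all 8 arrays, Psmb8, Psmb9 and Tap1 were called and the calls of Tap2 (adjusted p = 0.0599), B2m (0.183) and Psmb10 (0.121) were lost. Without scaling between arrays the calls of Psmb9 (adjusted p = 0.0569), Tap2 (0.0746), B2m (0.505) and Psmb10 (0.426) were lost.

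The immunoproteasome subunits and their constitutive counterparts did not move together. Under MEKi, the 3 constitutive catalytic subunits were not called, with changes of −0.00 for Psmb5 (adjusted p = 0.993), 0.10 for Psmb6 (adjusted p = 0.775) and −0.10 for Psmb7 (adjusted p = 0.820), and 0 of 11 structural subunits of the core particle were called, with a median change of 0.09. The log2 ratio within each array, from which scaling between arrays cancels, tests the difference itself. For Psmb8 to Psmb5 it was −1.41 ± 0.30 (SD, n = 4) in Vehicle and 0.57 ± 0.14 (SD, n = 4) in MEKi arrays, a change of 1.97 (two-sided exact permutation test, p = 0.0286, the smallest that 4 against 4 allow, 0.0343 adjusted over 6 ratio tests). For Psmb9 to Psmb6 the change was 1.39 (exact p = 0.0286, adjusted 0.0343), and for Psmb10 to Psmb7 it was 0.94 on 3 Vehicle arrays, where the exact test cannot go below p = 0.0571.

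In BRAFV600E against Cre control the ratios moved the other way. The Psmb8 to Psmb5 ratio was 0.38 ± 0.26 (SD, n = 6) in controls and −0.92 ± 0.54 (SD, n = 6) in mutants, a change of −1.30 (two-sided exact permutation p = 0.00217, adjusted 0.0130). No mutant array reached the lowest control ratio. The change was −0.75 for Psmb9 to Psmb6 (exact p = 0.0108, adjusted 0.0216) and −1.23 for Psmb10 to Psmb7 over 11 arrays (exact p = 0.00433, adjusted 0.0130). The direction was the same with the mutant arrays of either slide. With those of slide 1 the changes were −1.83, −1.22 and −1.75, and with those of slide 2 −1.04, −0.52 and −0.88, in the order given. Of the constitutive subunits Psmb7 was called higher in BRAFV600E (0.61, adjusted p = 0.00579), and Psmb5 (0.31, adjusted p = 0.258) and Psmb6 (0.11, adjusted p = 0.782) were not called. With the slide as a block the call of Psmb7 was lost (0.51, adjusted p = 0.0665). Within slide 1, 2 against 6 arrays cannot give an exact two-sided p below 0.0714, and each ratio gave that value. These ratios were chosen after the members' values were seen.

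**Figure D3:**
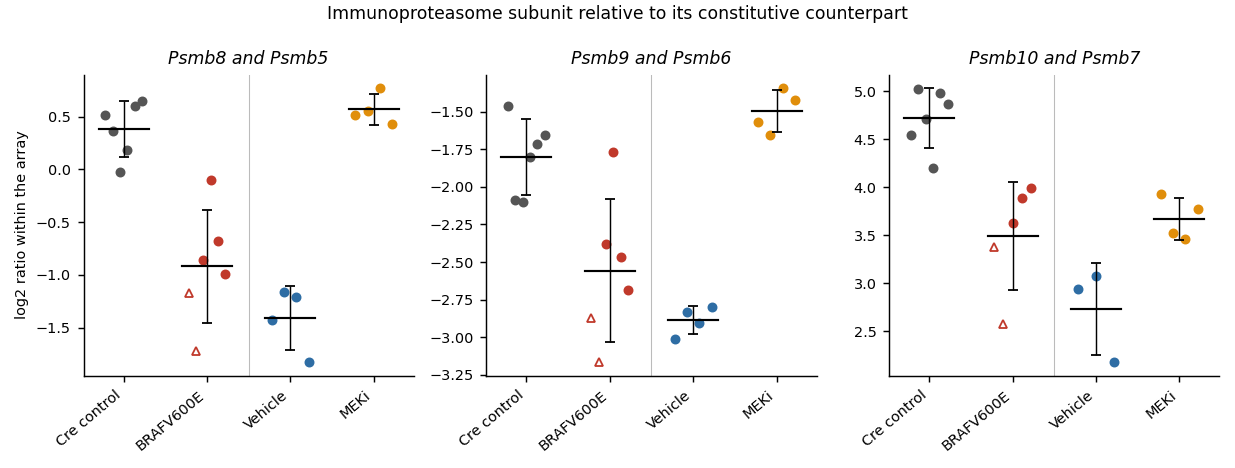
Log2 ratio of each immunoproteasome subunit to its constitutive counterpart within each array (vertical axis) for the 4 groups (horizontal axis). Points are arrays, open triangles BRAFV600E arrays on slide 1, bars means and error bars SD. Psmb8 to Psmb5 lies between −1.83 and −1.16 on the Vehicle arrays and between 0.43 and 0.77 on the MEKi arrays.

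Other class I heavy chains and class I-like genes were followed in a list of 21, of which 19 had a probe and were tested. In BRAFV600E, 4 of 19 were called lower and 0 higher, with a median change of −0.32. They were Cd1d1 (−0.72, adjusted p = 0.0316), which presents lipids, H2-Q1 (−0.63, adjusted p = 0.0299), H2-M3 (−0.51, adjusted p = 0.0400), which presents formylated peptides, and Hfe (−0.50, adjusted p = 0.0391), which controls iron uptake rather than presenting peptides. With the slide as a block, 8 of 19 were called lower and 1 higher (Mr1), but not with the same genes. Of the 4 named, H2-Q1 and H2-M3 were called there, and the calls of Cd1d1 (adjusted p = 0.0632) and Hfe (−0.38, adjusted p = 0.254) were lost, while H2-Q7, H2-Q8, H2-T3, H2-T23, H2-M2 and H2-Bl were called in addition. Under MEKi 0 of 19 were called, although 16 changes were positive with a median of 0.55 and 11 had an unadjusted p under 0.05. Over the 19108 genes tested, 10401 changes were positive and 3142 had an unadjusted p under 0.05. Of 8 genes for peptide loading, trimming and folding, Pdia3, a disulfide isomerase of the loading complex, was called higher in BRAFV600E (0.49, adjusted p = 0.0361), a call lost with the slide as a block (adjusted p = 0.0691), and 0 were called under MEKi. Of 7 proteasome activator and assembly genes, 6 were tested and 0 were called in either comparison. The gene not tested was Psme2, which had no probe of its own name, and its copy Psme2b is described below.

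Among 14 genes that control class I transcription, Ciita was called higher under MEKi. Ciita, the transactivator of class II genes and a relative of Nlrc5, stood at 0.49, 0.52, 0.84 and 0.61 on the Vehicle arrays and at 2.76, 2.0, 2.64 and 2.49 on the MEKi arrays, and rose by 1.86 (SE 0.18, adjusted p = 0.00505). The groups did not overlap. Irf1, which binds interferon elements, differed by 0.61 and was not called (adjusted p = 0.179). In BRAFV600E, Irf2, a repressor of interferon elements, was called higher (0.74, adjusted p = 0.00617), a call lost with the slide as a block (0.67, adjusted p = 0.0587), where 0 of the 14 were called.

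Of 15 tested genes for interferons, their receptors and signalling, 2 were called higher under MEKi, Stat2 (0.69, adjusted p = 0.0404) and the feedback inhibitor Socs3 (1.18, adjusted p = 0.0224). In BRAFV600E 0 were called, and 3 had an unadjusted p under 0.05, as did 5764 of all 18926 genes tested. The probe of Ifng, which encodes interferon-gamma, was well above background on 4 of 4 MEKi arrays and on 1 of 4 Vehicle arrays, so that its measured difference of 1.46, which was not called (adjusted p = 0.163), is set mostly against signals near background, and Ifnb1 was well above background on 0 of 20 arrays.

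Class I genes are expressed by most cells, and in bulk tissue fewer cells of a type and less RNA per cell cannot be told apart. Marker lists for other cells were therefore read beside the class I genes. The 4 cytotoxic lymphocyte markers (Gzma, Gzmb, Nkg7 and Prf1), all detected on every array, had a summed level, in multiples of the array's 75th percentile, of 24.3 to 54.3 on Cre control arrays, 7.33 and 13.8 on BRAFV600E replicates 1 and 2, and 26.8 to 40.6 on replicates 3 to 6. Their sum was 12.8 to 27.9 on Vehicle and 28.9 to 52.0 on MEKi arrays, and Gzmb was called higher under MEKi (1.36, adjusted p = 0.04999) and the other 3 were not. Their mean log2 level ran from 0.39 to 1.23 on Vehicle and from 1.27 to 1.72 on MEKi arrays. With the slide as a block, the fit in which 9 of 10 class I genes were called lower, 3 of these 4 markers were called lower too, Gzma (−2.21, adjusted p = 0.00444), Nkg7 (−1.66, adjusted p = 0.00413) and Gzmb (−1.21, adjusted p = 0.0164). The 7 T cell markers summed to 37.4 to 101.8 on Cre control arrays, 35.7 and 37.5 on replicates 1 and 2, 64.1 to 104.8 on replicates 3 to 6, 52.3 to 110.5 on Vehicle and 49.9 to 76.7 on MEKi arrays. Of the 7, 2 were called lower in BRAFV600E, Cd3g (−0.98, adjusted p = 0.0354) and Cd8a (−0.84, adjusted p = 0.0344), and with the slide as a block 4 were, Cd3d, Cd3g, Cd8a and Cd2. Under MEKi 0 of the 7 were called, with a median change of 0.63. A sum is weighted to the brightest probes, here Cd4, which differed by −0.37 under MEKi (adjusted p = 0.581) while the other 6 differences were positive. The mean log2 level of the 7, which weights them equally, ran from −0.37 to 0.36 on Vehicle and from 0.12 to 1.11 on MEKi arrays.

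The 6 myeloid markers summed to 236 to 372 on Cre control, 84.5 and 88.7 on BRAFV600E replicates 2 and 1, 101 to 212 on replicates 3 to 6, 146 to 244 on Vehicle and 264 to 383 on MEKi arrays. This sum is weighted to Lyz2, and the mean log2 level of the 6 overlapped between Vehicle (2.34 to 2.80) and MEKi arrays (2.47 to 3.02), with a median change of 0.10. The same mean was 2.94 to 3.43 on Cre control arrays and 2.45 and 2.38 on BRAFV600E replicates 1 and 2. It was 2.34 to 2.97 on replicates 3 to 6, so replicates 1 and 2 did not stand apart from them. Of the 6 markers, 3 were called lower in BRAFV600E (Lyz2, Csf1r and Itgax; with the slide as a block Lyz2 and Csf1r) and 0 under MEKi. B cell markers summed to 0.818 to 6.02 and 0 of 4 were called. Of 8 epithelial markers, Krt19, Krt18 and Cdh1 were called higher in BRAFV600E (Cdh1 not with the slide as a block, adjusted p = 0.215). Cdx2 was called lower with the slide as a block (−0.89, adjusted p = 0.0168), though not in the fit without it. Krt19 was called lower under MEKi (−0.73, adjusted p = 0.0297). Of the 5 smooth muscle and fibroblast markers Des was called higher in BRAFV600E (not with the slide as a block, adjusted p = 0.134), and of the 3 endothelial markers and Ptprc, which marks all leukocytes, 0 were called. No marker in these lists was undetected in a whole group. The part of these cells in the class I levels was not tested.

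**Figure D4:**
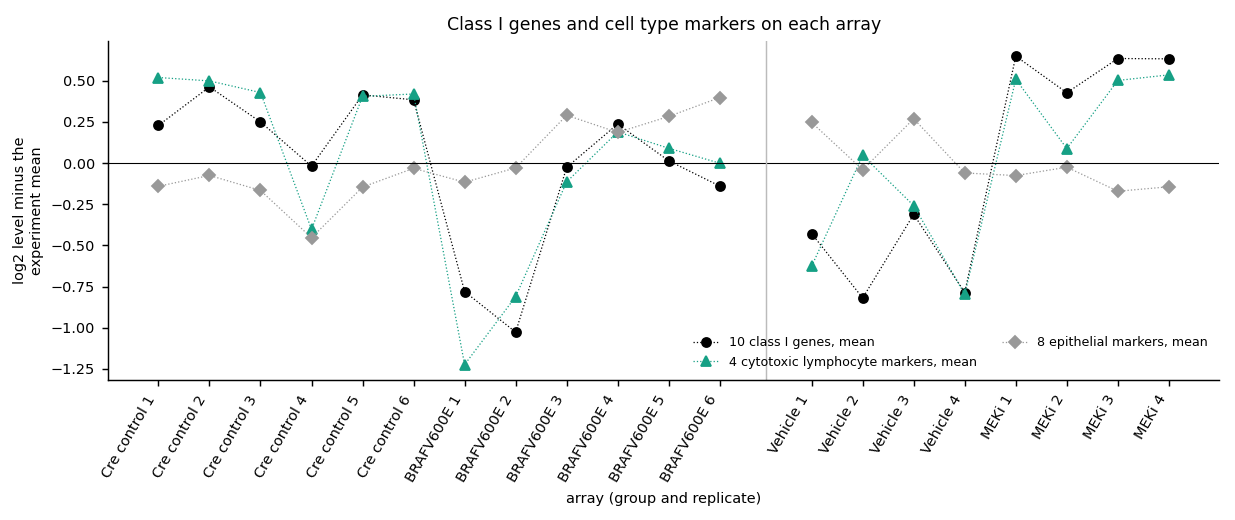
Mean log2 levels of the 10 class I genes, of 4 cytotoxic lymphocyte and of 8 epithelial markers on each array (horizontal axis), each minus its own mean over the experiment (vertical axis, log2 units). Psmb10 has no value on BRAFV600E replicate 6 and Vehicle replicate 2, so the class I mean there leaves it out and is drawn too low. With each gene centred first, these arrays stand at 0.08 and −0.63, and Vehicle replicate 4 at −0.82. The vertical line separates the experiments, which were centred separately. BRAFV600E replicates 1 and 2 have the lowest values of the first experiment for the class I genes and the cytotoxic markers but not for the epithelial markers. Without scaling between arrays, 8 of the 10 class I genes had the higher mean in BRAFV600E.

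The members resembled each other across the 20 arrays to different degrees. Each gene was centred within its experiment and set against the members' mean profile, with the root mean square difference over arrays as the measure. Psmb10 (0.16 log2 units), Tapbp (0.18) and Psmb9 (0.19) lay nearest the mean profile and Psmb8 (0.37) and B2m (0.32) farthest from it. The measure counts the size of a change as well as its direction, and each member is part of the mean. Psmb8 had the widest difference of the members in both comparisons (−0.99 and 1.97). Of the other genes among the 18253 compared, the 5 nearest were Psme2b (0.17), Rab19 (0.19), Lrp4 (0.20), Insl6 (0.21) and Parp10 (0.21). Psme2b is a copy of the gene for a subunit of the proteasome activator PA28, and its probe may also read its parent Psme2, which had no probe of its own name. Psme2b was called higher under MEKi (0.73, adjusted p = 0.0404) and had a difference of −0.47 in BRAFV600E (adjusted p = 0.165). Rab19, a small GTPase, was called higher under MEKi (0.98, adjusted p = 0.0140) and differed by −0.42 in BRAFV600E (adjusted p = 0.140).

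A second probe was present for 7 members. Under MEKi all 7 second probes had a higher mean, from 0.08 (Nlrc5) to 1.27 (Psmb9, well above background on 2 of 8 arrays). With every probe tested on its own, the 6 that were tested had adjusted p from 0.0707 (Tap1) to 0.956 (Nlrc5). In that fit the first probes of B2m (adjusted p = 0.0788) and Psmb10 (0.0803) lost their calls as well. The first probes of Psmb8, Psmb9, Tap1 and Tap2 kept theirs. In BRAFV600E 5 of 7 had a lower mean, and those of B2m (0.18, adjusted p = 0.702) and Tapbp (0.10, adjusted p = 0.793) had a higher one. The second Tap2 probe, with the widest difference (−1.70), was well above background on 5 of 12 arrays and was not tested. The second H2-K1 probe differed by −0.32 in BRAFV600E (adjusted p = 0.291) and by 0.63 under MEKi (adjusted p = 0.307), close to the first.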

How the data were processed

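The authors hybridised intestinal RNA of 20 mice, 1 array each, to 1-colour Agilent arrays and extracted the scans with Agilent Feature Extraction 10.5.1.1, per the file headers and the submitters' processing notes. The deposited intensity per spot is background-subtracted and detrended within the array but not normalized between arrays. The deposited value table holds the same intensity. The deposited 0 or 1 marks per spot, of another kind than an intensity, served as filters. Control spots and outlier spots were left out. Log2 intensity minus each array's 75th percentile was used, and probes were named through RefSeq genes. The probe with the highest mean stood for a gene. Genes well above background on at least 6 of 12 or 4 of 8 arrays were fitted in each comparison on its own arrays with limma 3.58.1 (R 4.3.3), which the study's methods also name, without covariates. A Benjamini-Hochberg adjusted p under 0.05 over all genes tested was a call. Every adjusted p of a gene is from limma, two-sided. The fit was tested on simulated data.

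Members and lists were chosen with earlier results of these data known. Named beside the 10 members are list genes that were called, the 5 nearest profiles, and genes whose values bear on a result. Groups came from the labels. The treatment text in the labels describes another experiment and was not used. Replicate numbers only name arrays, and p-values are set against the spread between arrays within groups. The BRAFV600E arrays were split between slides, so their spread also holds any difference between slides, not only that between mice. The slide was not a term in the reported fit or in the ratio tests on all BRAFV600E arrays. Whether probes lie in exons or UTRs was not analysed here. Arrays give no counts, so their number limits the precision. The alternatives are given at the end. A further gene of the lists is not reported here.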

Additional observations from a re-analysis of the deposited data

Results flagged for a closer look

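In 39 of the 40 groups of levels (10 genes in 4 groups, the Vehicle group of Psmb10 having too few values), the highest and the lowest array were compared with the rest of their group by Dixon's criterion, which chance meets in about 5% of groups. In 3 cases 1 array stood apart. MEKi replicate 2 was far below the other MEKi arrays for Nlrc5 (−1.64, the next array at −0.32) and for Psmb9 (4.05, the next at 4.46). Cre control replicate 4 was below the other controls for Psmb9 (3.15, the next at 3.76). Without MEKi replicate 2 Nlrc5 was called higher (1.53, adjusted p = 0.0243, limma) and Psmb9 kept its call (1.60, adjusted p = 0.00383). Without Cre control replicate 4 the Psmb9 difference in BRAFV600E was −0.77 and was not called (adjusted p = 0.0916).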

How the results depend on the processing

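Of the 10 class I genes in BRAFV600E, 1 was called lower as reported, 0 without scaling between arrays, with Y-linked signal as a covariate and with the mutant arrays of slide 2 only, 2 with quantile normalization, with normexp, with genes well above background on every array and with all 20 arrays in 1 fit, 9 with the slide as a block, 7 within slide 1, and 0 to 2 when 1 array was left out. Without scaling, where the median of all genes rose by 0.79, differences turned positive for B2m (0.51), H2-K1 (0.34), H2-D1 (0.67), Tap1 (0.38), Tapbp (0.39), Psmb9 (0.16), Psmb10 (0.10) and Nlrc5 (0.36), and with slide 2 only for H2-D1 (0.089) and Tap1 (0.11). Over all genes, 2468 were called in BRAFV600E as reported, 9306 without scaling (9130 of them higher), 4809 with normexp (1593 higher), 1568 with the slide as a block, 732 within slide 1, 1507 with slide 2 only, 445 on arrays with Y-linked signal, and 1473 to 2950 when 1 array was left out. Under MEKi, 6 of the 10 were called higher as reported, 2 without scaling, 3 with Y-linked signal as a covariate and 4 to 5 when 1 array was left out. Over all genes, 382 were called as reported, 74 without scaling, 239 without the filter on dim probes, 250 with the mean of a gene's probes, 1131 with array weights, 54 with the Y-linked covariate, 77 on arrays with Y-linked signal and 76 to 374 when 1 array was left out. The cause of these shifts was not tested. The slide 2 and Y-linked array subsets and the subunit ratios were chosen after seeing the data. No paired analysis was possible because replicate numbers follow accession order only. Signal was well above background for every member, so background limits only the second probes.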
